A study of Mus musculus with 2 samples.

Results

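The p53 family holds 3 transcription factors, p53 (Trp53), p63 (Trp63) and p73 (Trp73). They were examined in muscle nuclei together with 7 genes that these factors are known to bind and switch on: Cdkn1a, Mdm2, Ccng1, Eda2r, Sesn1, Gadd45a and Zmat3. The 10 genes were picked by symbol, and all of them were among the 27998 genes measured. The data are single-nucleus RNA-Seq of the gastrocnemius-plantaris (GP), the large calf muscle of the mouse, with 1 Ctrl library and 1 cKO library. Ctrl mice were Net39 fl/fl without Cre and cKO mice were HSACreERT2;Net39 fl/fl. Both groups had the B6C3F1 background, were 5 months old and were 3 months past tamoxifen, so both carried the floxed allele and had been given the drug. Net39 is a nuclear envelope protein of muscle, encoded by Plpp7. The skeletal actin promoter confines the Cre to muscle fibres, so the other cells of a cKO muscle keep the gene. The protocol states that 3 muscles per group were pooled, although the sample titles name mouse 1, and nuclei cannot be traced to an animal. With 1 library per group there were no replicates, no test was possible, and every interval below is a 95% interval that covers counting error only.

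p53 is held at low levels by Mdm2, a ubiquitin ligase whose own gene p53 switches on, and DNA damage or other stress lets p53 accumulate. Its targets stop the cell cycle, repair DNA, restrain growth or lead to cell death. p63 binds nearly the same DNA sequence and is best known as the factor that maintains stratified epithelia, while p73 is best known in neurons and ciliated cells. The assay captures the 3′ end of transcripts, so the long and the N-terminally truncated forms of p63, which differ in their ability to activate genes, were not told apart.

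Levels are given as CPM, the usual unit of counts scaled to a common total, from the UMIs of a gene and the UMI total of a class of nuclei, where a UMI (unique molecular identifier) stands for 1 captured RNA molecule. The libraries held 10410316 UMIs in 3863 barcodes (Ctrl) and 8446070 UMIs in 3994 barcodes (cKO), and 5 barcode sequences occurred in both. After filters, 2989 Ctrl and 3301 cKO nuclei were myonuclei, with all 12 pan-fibre marker genes detected, and 537 Ctrl and 294 cKO nuclei lay outside the fibres. Plpp7 was at 51.6 CPM in Ctrl (408 UMIs) and 41.0 CPM in cKO myonuclei (278 UMIs), but the deleted part is the first exon and the reads lie at the 3′ end, so this is no check of the deletion. By class it was at 54.5 and 60.2 CPM in Myh4 nuclei, and at 49.4 CPM (2 UMIs) and 13.1 CPM (8 UMIs) in Myh7 nuclei. Malat1, a nuclear noncoding RNA, took 26.5% of Ctrl and 31.4% of cKO myonuclear UMIs. Over all 10546 genes with at least 30 UMIs, cKO against Ctrl gave a median log2 ratio of −0.08, and the ratios of the members stand against that value.

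Each myonucleus was also given a main myosin, the adult myosin heavy chain gene with 60% or more of its UMIs of Myh7, Myh2, Myh1 and Myh4, given 3 or more such UMIs. These genes mark slow type I, fast type IIa, fast type IIx and fast type IIb fibres, respectively. The Ctrl library had 19 Myh7, 165 Myh2, 302 Myh1 and 1916 Myh4 nuclei. The cKO library had 276, 324, 382 and 1435 nuclei of these classes. The other 587 Ctrl and 884 cKO myonuclei were undetermined. The 19 Ctrl Myh7 nuclei hold only 40470 UMIs, which is too few for most of the members.

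p53 and p63 bind DNA at a shared kind of site, so matches to it in the promoters are shown first. RefSeq windows of 250 bases before to 50 bases after a transcript start (GRCm38.p6) were found for 8 of the 10 genes, but not for Trp63 and Zmat3. The windows were searched for the p53 half-site of 10 bases, which reads the same way on both strands, and for full sites of 2 adjoining half-sites with up to 2 mismatches. These 8 genes had 11 windows, of which 6, each of another gene, held a half-site, and 8.36% of all 32851 promoter windows held one. A full site lay in 3 windows (of Cdkn1a, Ccng1 and Trp73), and 0.326% of all windows held one. Overlapping matches of a half-site inside a full site were counted under both. The sites of 4 targets whose levels differed between the libraries are printed on the strand of the gene, with the site in capitals.
Cdkn1a, full site, chr17:29090923-29090952, plus strand: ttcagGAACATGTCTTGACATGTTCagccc
Ccng1, full site, chr11:40755457-40755486, minus strand: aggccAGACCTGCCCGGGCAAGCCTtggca
Mdm2, half-site, chr10:117710925-117710954, minus strand: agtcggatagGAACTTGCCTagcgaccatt
Gadd45a, half-site, chr6:67037428-67037457, minus strand: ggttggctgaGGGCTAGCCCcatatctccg
The full sites of Cdkn1a and Ccng1 each had 1 mismatch. No match lay in the single window of Eda2r, which says only that these letters are not in that window. A match is a description of sequence and was not tested for binding.

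In all myonuclei, Eda2r, Mdm2 and Ccng1 were higher in cKO than in Ctrl by more than 1.5-fold, and Gadd45a and Cdkn1a were lower by more than 1.5-fold. These were 3 and 2 of the 9 members with at least 30 UMIs. Gadd45a (64 UMIs in Ctrl and 22 in cKO) had at least 30 UMIs only through Ctrl. Of all genes with that many UMIs, 8.36% were higher by this fold and 12.3% were lower. Ccng1 stood at the limit and was below it with doublets kept (log2 ratio 0.54), which left 2 members higher. With CPM computed per nucleus and averaged, Mdm2 (0.50) and Ccng1 (0.57) were below the limit and Eda2r (0.98) was past it. Without Malat1 and mitochondrial genes in the total, Trp63 was past the limit too (0.64), 4 members were higher, and 10.6% of all genes were higher and 9.33% lower. Trp73 had too few UMIs to count. The targets therefore did not differ as 1 group, and Trp53 itself was at the same level within counting error.

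Among the family, Trp63 (chromosome 16, 25683763 to 25892102, plus strand, GRCm38) gave 3598 UMIs or 455 CPM in Ctrl myonuclei (440 to 470), against 4492 UMIs or 662 CPM in those of cKO (643 to 682). This is a 1.46-fold difference, or 0.54 on the log2 scale (0.48 to 0.60). Trp53 (chromosome 11, 69580359 to 69591873, plus strand) had 22.0 CPM in Ctrl (174 UMIs) and 21.2 CPM in cKO (144 UMIs), with a log2 ratio of −0.05 (−0.38 to 0.27). Its interval leaves room for a difference of either sign. Trp73 (chromosome 4, 154056253 to 154140208, minus strand) had 10 UMIs in Ctrl and 11 UMIs in cKO, each in a nucleus of its own, or 1.26 and 1.62 CPM. It overlaps a gene on the opposite strand, Trp73os, and a UMI at such a place may belong to either if strand was not used in counting.

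The negative regulator Mdm2 (chromosome 10, 117688875 to 117710758, minus strand) had 40.9 CPM in Ctrl (323 UMIs) and 69.0 CPM in cKO (468 UMIs). The log2 ratio was 0.76 (0.55 to 0.97). Eda2r (chromosome X, 97333840 to 97377216, minus strand) encodes a receptor of the tumor necrosis factor receptor family that binds ectodysplasin A2. It had 43.5 CPM in Ctrl (344 UMIs) and 99.4 CPM in cKO (674 UMIs). Its log2 ratio of 1.19 (1.00 to 1.38) was the largest among the members that were higher in cKO. In cKO, the most UMIs in any nucleus were 13 for Eda2r and, counted separately, 9 for Mdm2.

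The genes of the cell cycle differed in direction. Ccng1 (chromosome 11, 40748552 to 40755311, minus strand), which encodes the p53-induced cyclin G1, had 22.5 CPM in Ctrl (178 UMIs) and 33.9 CPM in cKO (230 UMIs). Its log2 ratio of 0.59 (0.30 to 0.88) was just past 1.5-fold. Cdkn1a (chromosome 17, 29090976 to 29100727, plus strand), which encodes the cyclin-dependent kinase inhibitor p21, had 8.48 CPM in Ctrl (67 UMIs) and 4.57 CPM in cKO (31 UMIs). The log2 ratio was −0.89 (−1.55 to −0.26). Gadd45a (chromosome 6, 67035096 to 67037457, minus strand), a stress-induced gene of growth arrest and DNA repair, had 8.10 CPM in Ctrl (64 UMIs in 53 nuclei) and 3.24 CPM in cKO (22 UMIs in 20 nuclei). The log2 ratio was −1.32 (−2.09 to −0.60). Both genes overlap an annotated gene on the opposite strand, while Trp63 overlaps Gm27005 and Sesn1 overlaps 9930024M15Rik on the same strand.

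Sesn1 (chromosome 10, 41809935 to 41908424, plus strand) encodes sestrin 1, which restrains growth signalling through mTORC1. It had 153 CPM in Ctrl (1209 UMIs) and 211 CPM in cKO (1429 UMIs), with a log2 ratio of 0.46 (0.35 to 0.57). Zmat3 (chromosome 3, 32334792 to 32366014, minus strand) encodes an RNA-binding zinc finger protein. Its levels of 7.84 CPM in Ctrl (62 UMIs) and 8.40 CPM in cKO (57 UMIs) did not differ beyond counting error, with a log2 ratio of 0.10 (−0.45 to 0.64).

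**Figure D1:**
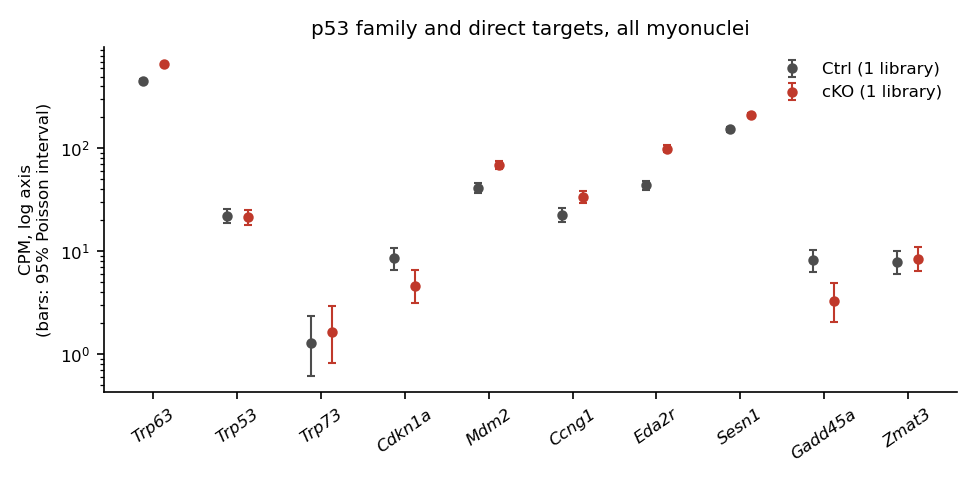
Level of each of the 10 genes in all myonuclei, in CPM on a log axis, with Ctrl in grey and cKO in red (1 library each). Bars are 95% Poisson intervals; the cKO point lies above the Ctrl point for Trp63, Mdm2, Ccng1, Eda2r and Sesn1 without overlap of the bars, below it for Gadd45a and Cdkn1a, and the bars overlap for Trp53, Trp73 and Zmat3.

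A wider set of p53 targets was also counted. Of 55 other direct targets, 30 had at least 30 UMIs, and 5 of these were higher and 2 were lower in cKO by 1.5-fold or more. Their median log2 ratio was −0.11, against −0.08 for all genes. The share that was higher, 16.7%, stands beside 8.36% of all genes, and the share that was lower, 6.67%, stands beside 12.3%. With doublets kept, 3 of 30 were higher (10.0%), beside 8.02% of all genes. Targets of the cell cycle and growth held Sesn3, a sestrin that is also a Foxo target, at 7.08 CPM (Ctrl) and 43.2 CPM (cKO). They also held Btg2, an antiproliferative gene, at 6.20 and 22.1 CPM. The other 4 of the 6 genes of that list with enough UMIs were between the limits.

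Over all genes, 79.3% were between the limits. Among the cell death targets, 7 of 8 genes with enough UMIs were between them, and Apaf1, the core of the apoptosome, was at 7.34 CPM in the Ctrl library and 11.3 CPM in the cKO library. Bax, a mitochondrial pore protein, was at 5.95 and 4.87 CPM. The death genes Bbc3 and Fas had only 14 and 29 UMIs over both libraries, and Pmaip1 and Perp had 0 UMIs in either library. Among the DNA repair targets, 8 of 9 were between the limits, and Rad51c was at 3.54 and 1.92 CPM with an interval of its log2 ratio that included 0 (−1.96 to 0.11). The metabolic and secreted targets held Ephx1 (2.40 and 4.72 CPM) on the higher side, and Ddit4, an mTORC1 inhibitor, on the lower side (5.19 and 1.03 CPM).

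Among the regulators of p53, 17 of 18 genes with enough UMIs were between the limits. Trp53bp2, which encodes a p53-binding protein that favors cell death, was at 35.3 CPM for Ctrl and 23.0 CPM for cKO. Mdm4, the partner of Mdm2, was at 163 and 209 CPM, with a log2 ratio of 0.36 (0.25 to 0.47). The damage kinases Atm (0.10, −0.13 to 0.34) and Atr (−0.15, −0.36 to 0.06) had log2 ratios whose intervals included 0.

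The levels were then set out by main myosin. In Ctrl, Trp63 was at 475 CPM in Myh1 nuclei, 468 CPM in Myh4 nuclei and 478 CPM in undetermined nuclei, which did not differ beyond counting error. It was lower in Myh2 nuclei (206 CPM, 84 UMIs) by a log2 ratio of −1.18 (−1.52 to −0.87) against Myh4 nuclei. In Ctrl Myh7 nuclei it was at 148 CPM from 6 UMIs. Fast type IIx and IIb nuclei of Ctrl thus held more Trp63 per UMI than type IIa nuclei. The Ctrl Myh2 and Myh7 levels did not differ beyond counting error from the 194 CPM of Ctrl nuclei outside the fibres, so they were not detectable above that level.

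In cKO the 4 myosin classes stood in the same order. Myh1 nuclei had 1028 CPM (917 UMIs), undetermined nuclei had 775 CPM, and Myh4, Myh2 and Myh7 nuclei had 564, 519 and 472 CPM. The first 2 steps of this order were beyond counting error, and the neighbours among the last 3 classes were within it. From Ctrl to cKO, the log2 ratio of Trp63 was 1.67 in Myh7 (0.53 to 3.13), 1.33 in Myh2 (0.99 to 1.69), 1.11 in Myh1 (0.94 to 1.29) and 0.27 in Myh4 nuclei (0.18 to 0.36). Of the 4 myosin classes, Myh4, the largest in either library, thus had the smallest difference, and its interval did not reach that of Myh2 or Myh1. Of the 207 CPM by which Trp63 was higher in cKO over all myonuclei, 216 CPM came from levels within the 5 classes and −8.59 CPM from their shares of UMIs. Divided by the 8 clusters of myonuclei in place of myosin, the same difference held 60.6 CPM from levels within clusters and 147 CPM from their shares.

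Mdm2 showed the same contrast between fast classes. It was at 26.3 CPM in Ctrl (21 UMIs) and 139 CPM in cKO (124 UMIs) in Myh1 nuclei, a log2 ratio of 2.40 (1.73 to 3.15). In Myh4 nuclei it was at 39.9 CPM (217 UMIs) and 46.7 CPM (139 UMIs), with a log2 ratio of 0.23 (−0.09 to 0.54). The fold in Myh1 nuclei was larger than in Myh4 nuclei beyond counting error, since the intervals do not meet. In Myh2 nuclei Mdm2 was at 22.1 CPM (9 UMIs) and 51.0 CPM (35 UMIs).

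Eda2r had few UMIs in the oxidative classes of Ctrl, with 0 UMIs in the 19 Myh7 nuclei and 1 UMI in the 165 Myh2 nuclei (2.45 CPM). In cKO it was at 83.6 CPM in Myh7 (51 UMIs) and 68.5 CPM in Myh2 nuclei (47 UMIs). The log2 ratio in Myh2 nuclei was 4.80 (2.26 to 10.14), which rests on that 1 Ctrl UMI. With main myosin called after thinning it was 2.02 (−0.09 to 5.19), an interval that included 0. In Myh7 nuclei, 0 UMIs in Ctrl allow a level of up to 74.1 CPM (3 UMIs in the class), and the exact interval runs from 0 to 91.2 CPM. That interval holds the cKO level (62.3 to 110), so 19 nuclei were too few to show a difference. In Myh1 nuclei Eda2r was at 58.8 CPM (47 UMIs) and 160 CPM (143 UMIs), and in Myh4 nuclei at 42.1 CPM (229 UMIs) and 71.6 CPM (213 UMIs). Eda2r was thus higher in cKO in Myh1 and Myh4 nuclei, with the lower log2 ratio, 0.76 (0.49 to 1.04), in Myh4 nuclei. Nothing is concluded for Myh2 nuclei, where Eda2r had enough UMIs to be counted only through cKO.

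**Figure D2:**
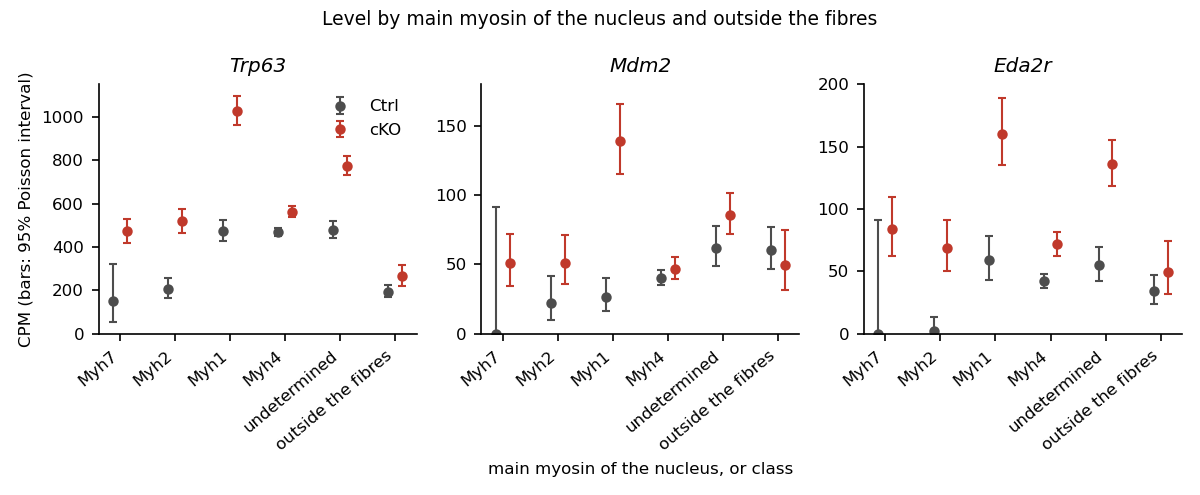
CPM of Trp63, Mdm2 and Eda2r by main myosin of the nucleus, in undetermined myonuclei and in nuclei outside the fibres, with Ctrl in grey, cKO in red and 95% Poisson intervals as bars. The largest cKO levels of all 3 genes are in Myh1 nuclei (1028, 139 and 160 CPM), and the wide Ctrl bars of the Myh7 class come from 19 nuclei.

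The remaining targets were as follows. Sesn1 in Ctrl was lowest in Myh4 nuclei (137 CPM) and higher in Myh1 (189 CPM) and Myh2 nuclei (235 CPM). In cKO it was at 183, 215 and 233 CPM in these classes, so the classes lay closer together. This depends on the myosin call. The Sesn1 log2 ratio in Myh2 nuclei was −0.01 (−0.39 to 0.37), but 0.74 (0.03 to 1.50) with main myosin called after thinning. Ccng1 was higher in cKO in Myh4 nuclei (23.9 and 37.3 CPM, log2 ratio 0.64, 0.26 to 1.02). Its difference in Myh1 nuclei (15.0 and 28.0 CPM) had an interval that included 0. Cdkn1a in Myh4 nuclei was at 8.46 CPM in Ctrl (46 UMIs) and 3.36 CPM in cKO (10 UMIs), a log2 ratio of −1.33 (−2.48 to −0.33). Gadd45a in Myh4 nuclei was at 7.73 and 4.03 CPM, with an interval that included 0 (−2.00 to 0.01), and with main myosin called after thinning its direction turned (0.94, −1.86 to 4.41). Zmat3 in undetermined nuclei was at 4.09 CPM (5 UMIs) and 12.98 CPM (21 UMIs), a log2 ratio of 1.67 (0.22 to 3.43). Trp53 was between 17.2 and 25.8 CPM in every class with at least 5 UMIs in either library.

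Counts of members per class were as follows. In Myh1 nuclei, 4 of 6 members with at least 30 UMIs were higher in cKO by 1.5-fold or more, against 8.76% of all genes. One of them was Ccng1, whose interval included 0 and whose value was -0.012 with main myosin at 80% of at least 5 UMIs. Ccng1 (12 and 25 UMIs) had enough UMIs only by the sum of both libraries, and Mdm2 (21 and 124 UMIs) only through cKO. The Myh1 count is thus read for Trp63 and Eda2r alone. In Myh2 nuclei 3 of 4 members were higher, against 8.47%. Eda2r (1 and 47 UMIs) and Mdm2 (9 and 35 UMIs) had enough UMIs to be counted only through cKO, so nothing is read from this count. The Mdm2 value there was 0.72 (−0.75 to 2.39) with main myosin at 80% of at least 5 UMIs. In Myh4 nuclei 2 of 9 members were higher, against 7.62%, and 2 of 9 were lower, against 11.0%. The lower members, Cdkn1a (46 and 10 UMIs) and Gadd45a (42 and 12 UMIs), had enough UMIs only through Ctrl, and Gadd45a has the limits given above. The 2 higher members, Ccng1 and Eda2r, were both below the limit with main myosin at 80% of at least 5 UMIs (0.51 each), and Ccng1 also with doublets kept (0.54). In undetermined nuclei 4 of 6 were higher, against 10.1%. Of these, Ccng1 (24 and 56 UMIs) had enough UMIs only through cKO. Sesn1 was below the limit with doublets kept (0.56) and with main myosin at 80% of at least 5 UMIs (0.50). With main myosin called after thinning, Sesn1 (0.48), Trp63 (0.51) and Ccng1 (0.49) were all below it. In Myh7 nuclei Trp63 was higher and Sesn1 lower of 4, against 26.0% and 26.7%, and the interval of Sesn1 included 0. Mdm2 (0 and 31 UMIs) and Eda2r (0 and 51 UMIs) gave no ratio and were not counted as higher. Genes with 0 Ctrl UMIs were counted as higher in the 26.0%, so the 2 are not alike. All 4 members had enough UMIs only through cKO, so nothing is read from this count either.

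The unsupervised clusters divided the same nuclei differently. One cluster had all 9 type I markers and was led by Myh7 and the slow troponins, but nuclei of every main myosin were in it. It held 176 Ctrl and 942 cKO nuclei, and it was built from expression that included the members, so its values are a description. The Trp63 level was 1091 CPM in its Ctrl nuclei and 1114 CPM in its cKO nuclei (log2 ratio 0.03, −0.11 to 0.17). Over the other myonuclei Trp63 was at 414 CPM (Ctrl) and 438 CPM (cKO) (0.08, −0.00 to 0.16). These pooled values mix main myosins in different shares, since 18 of the 176 Ctrl nuclei of the cluster and 271 of its 942 cKO nuclei were Myh7 nuclei. Within a main myosin, Trp63 inside the cluster was higher in cKO in Myh7 (1.81, 0.57 to 3.44), Myh2 (2.70, 1.56 to 4.16), Myh1 (0.48, 0.23 to 0.74) and Myh4 nuclei (0.34, 0.09 to 0.60). It was within counting error in undetermined nuclei (0.02, −0.23 to 0.27). Outside the cluster, it was higher in cKO in Myh1 (0.53, 0.27 to 0.79) and undetermined nuclei (0.29, 0.09 to 0.50), and within counting error in Myh7, Myh2 and Myh4 nuclei. The cluster held 14.5% of the Trp63 UMIs of Ctrl myonuclei and 55.8% of those of cKO myonuclei.

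Pooled over main myosins, Mdm2 differed inside the cluster, at 88.1 CPM in the Ctrl library and 128 CPM in the cKO library inside the cluster (0.54, 0.07 to 1.05) and not beyond counting error in the other myonuclei, at 37.8 and 39.5 CPM (0.06, −0.22 to 0.34). Within a main myosin, Mdm2 inside the cluster was higher in cKO in Myh1 nuclei (2.83, 1.56 to 4.49, from 5 Ctrl UMIs) and within counting error in Myh4 (0.11, −0.88 to 1.15) and undetermined nuclei (−0.22, −0.89 to 0.51). Eda2r, pooled in the same way, differed in both sets. It was at 122 and 195 CPM inside the cluster (0.68, 0.28 to 1.10) and at 38.5 and 52.1 CPM outside it (0.44, 0.18 to 0.69). Within a main myosin, the Eda2r interval outside the cluster included 0 in Myh1 (0.18, −0.57 to 0.94) and Myh2 nuclei (2.07, −1.09 to 7.63, from 1 Ctrl UMI). Inside the cluster it included 0 in undetermined nuclei (0.64, −0.05 to 1.41). Sesn1 differed outside the cluster (147 and 188 CPM; 0.35, 0.22 to 0.48) and had an interval that included 0 inside it. Cdkn1a was lower in cKO in both sets (25.2 and 8.44 CPM inside, 7.40 and 2.65 CPM outside). Gadd45a was at 33.6 CPM in Ctrl (16 UMIs) and 2.22 CPM in cKO (5 UMIs) inside the cluster, and its interval in the other myonuclei included 0.

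The main myosin showed which nuclei of the cluster were high in Trp63. The Myh7 nuclei lay almost wholly in it (18 of 19 in Ctrl and 271 of 276 in cKO), yet those of cKO had 464 CPM of Trp63. The 86 cKO nuclei of the cluster with Myh1 as main myosin had 2344 CPM, against 444 CPM in the other cKO Myh1 nuclei. For Mdm2 these levels were 365 and 38.9 CPM, and for Eda2r 405 and 51.8 CPM. The 91 cKO Myh2 nuclei of the cluster had 1144 CPM of Trp63, against 182 CPM in the other cKO Myh2 nuclei. In Ctrl, the 27 Myh1 nuclei of the cluster had 1678 CPM of Trp63, against 308 CPM elsewhere. The 13 Ctrl Myh2 nuclei of the cluster were not high (176 CPM, 6 UMIs). In both libraries, then, the Myh1 and Myh4 nuclei placed in this cluster had more Trp63 than its Myh7 nuclei.

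**Figure D3:**
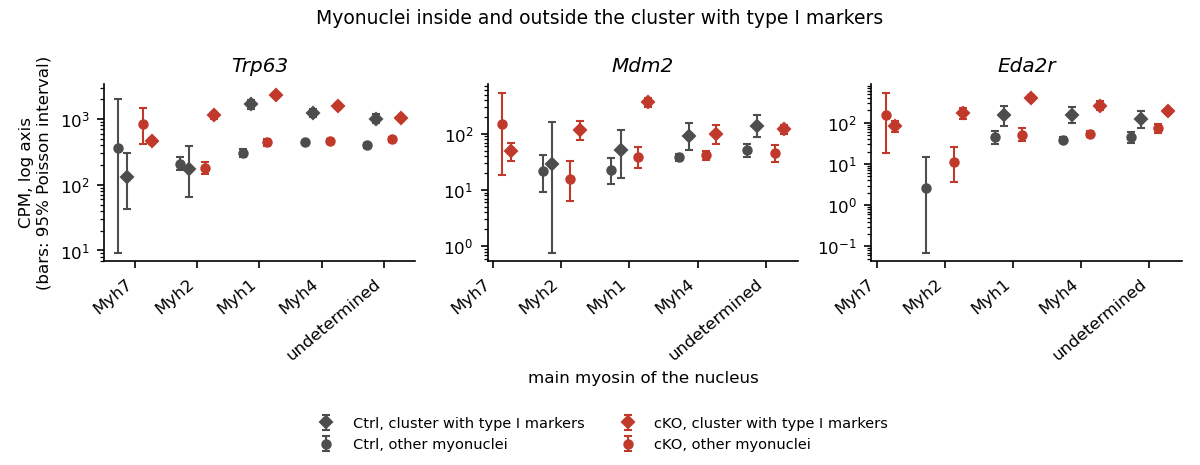
CPM of Trp63, Mdm2 and Eda2r on log axes by main myosin, for nuclei inside the cluster with type I markers (diamonds) and all other myonuclei (circles), with Ctrl in grey, cKO in red and 95% Poisson intervals as bars. Classes with 0 UMIs are not drawn; in Myh1 nuclei of cKO the diamonds stand at 2344, 365 and 405 CPM and the circles at 444, 38.9 and 51.8 CPM.

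A small unnamed cluster led by Plekhh1, with 160 Ctrl and 17 cKO nuclei, also had high Trp63 (934 CPM for Ctrl and 1536 CPM for cKO). Its 17 cKO nuclei held 7 of the 22 Gadd45a UMIs of cKO myonuclei. Without this cluster, the log2 ratio of Gadd45a in myonuclei was −1.79 (−2.71 to −0.95), and that of Trp63 was 0.60 (0.54 to 0.67).

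Trp63 was uneven from nucleus to nucleus. After each nucleus was thinned to 500 UMIs, 522 of 2989 Ctrl myonuclei (17.5%, 16.1 to 18.9) and 707 of 3301 cKO myonuclei (21.4%, 20.03 to 22.86) had at least 1 Trp63 UMI. Unthinned, the shares were 49.9% and 46.2%, at median depths of 2141 and 1647 UMIs. At least 2 UMIs were in 3.45% of Ctrl and 5.82% of cKO nuclei. The variance of the thinned count was 1.40 times its mean in Ctrl and 1.52 times in cKO, and only 1.71% and 1.59% of genes with at least 30 thinned UMIs had a higher ratio. Unthinned, the 10% of nuclei with the most Trp63 held 48.3% of its UMIs in Ctrl and 58.2% in cKO, shares that also follow the depth of the nuclei. By main myosin, the Trp63-positive share was 5.45% in Ctrl Myh2 nuclei and 15.7% in cKO Myh2 nuclei, 14.6% and 29.3% in Myh1 nuclei, and 19.0% and 20.1% in Myh4 nuclei.

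The targets were then compared between Trp63-positive and Trp63-negative myonuclei of the same library, leaving the UMIs of Trp63 out of the totals. Nuclei of a library are not replicates, so these are descriptions. In Ctrl, Eda2r was at 65.9 CPM in positive nuclei (93 UMIs) and 38.7 CPM in negative nuclei (251 UMIs), a log2 ratio of 0.77 (0.41 to 1.12). Gadd45a was at 14.9 CPM (21 UMIs) and 6.63 CPM (43 UMIs), a log2 ratio of 1.17 (0.34 to 1.95). Without thinning it was 0.63 (−0.16 to 1.47), and in the myonuclei outside the cluster with type I markers it was 0.52 (−0.60 to 1.52), both with 0 in the interval. Mdm2 was at 44.6 and 40.1 CPM (0.16, −0.26 to 0.56), and Sesn1 was at 150 and 154 CPM. Eda2r and Gadd45a were thus the 2 members past 1.5-fold on the higher side, of 8 with at least 30 UMIs, and 0 were past it on the lower side, against 4.74% and 10.6% of all genes.

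In cKO the contrast was wider. Eda2r was at 205 CPM in positive nuclei (327 UMIs) and 67.0 CPM in negative nuclei (347 UMIs), a log2 ratio of 1.61 (1.39 to 1.84). Mdm2 was at 135 CPM (216 UMIs) and 48.6 CPM (252 UMIs), a log2 ratio of 1.48 (1.21 to 1.74). Neither interval reached that of the same gene in Ctrl. Which nuclei count as positive depends on the random thinning, and the intervals do not cover that. With another thinning seed Eda2r had a log2 ratio of 1.31 (0.98 to 1.64) in Ctrl nuclei, overlapping its 1.54 (1.31 to 1.76) in cKO nuclei. Mdm2 then had 0.11 (−0.32 to 0.51) in Ctrl nuclei and 1.00 (0.72 to 1.27) in cKO nuclei, which do not overlap. Sesn1 was at 261 and 195 CPM (0.42, 0.25 to 0.59), and Cdkn1a was at 7.52 CPM (12 UMIs) and 3.67 CPM (19 UMIs) with an interval that included 0. With nuclei thinned to 1000 UMIs the cKO log2 ratio of Cdkn1a was 1.74 (0.58 to 3.00). In Ctrl it was 0.00 (−1.03 to 0.92). Without thinning the Ctrl value was 0.83 (0.04 to 1.68), and thinned to 1000 UMIs it was 0.75 (0.01 to 1.49). Of 7 members with at least 30 UMIs, 3 were past 1.5-fold on the higher side and 0 on the lower side, against 6.01% and 10.1% of all genes. Gadd45a had only 22 UMIs and was not counted.

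Trp53 gave no stable difference. It was at 25.5 CPM in positive and 21.3 CPM in negative Ctrl nuclei (0.26, −0.31 to 0.80), and at 19.4 and 21.8 CPM in cKO nuclei (−0.17, −0.79 to 0.42). With another thinning seed the Ctrl value was 0.90 (0.40 to 1.38). It was 0.73 (0.25 to 1.22) without thinning and 0.57 (0.12 to 1.02) with nuclei thinned to 1000 UMIs. With doublets kept (0.27, −0.27 to 0.78) and at 2 or more Trp63 UMIs (0.35, −0.99 to 1.43) the Ctrl interval included 0. Trp73 had 0 of its 10 Ctrl UMIs in positive nuclei and 2 of its 11 cKO UMIs. Among the other p53 targets, the median log2 ratio of positive over negative nuclei was 0.04 over 24 genes in Ctrl and 0.11 over 25 genes in cKO, beside −0.03 and −0.07 over all genes. Of these, 0 were higher by 1.5-fold and 3 lower in Ctrl (Btg2, Sesn3 and Bax). In cKO, 5 were higher (Btg2, Sesn3, Phlda3, Dapk1 and Rrm2b) and 3 lower, among them Ptp4a3 and Fancc. The shares of all genes are those given above for the members.

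The levels of Eda2r and Mdm2 were graded with Trp63 in cKO. Nuclei with 0, 1 and 2 or more thinned Trp63 UMIs had Eda2r at 67.0, 165 and 304 CPM and Mdm2 at 48.6, 104 and 213 CPM. Neighbouring steps had intervals that did not overlap for either gene. In Ctrl, Eda2r was at 38.7, 57.2 and 105 CPM, and Mdm2 was at 40.1, 43.4 and 50.4 CPM with overlapping intervals. At 1 UMI and at 2 or more UMIs the Mdm2 level was higher in cKO than in Ctrl beyond counting error, and at 0 UMIs the intervals overlapped. These nuclei also differed in cluster: 300 of the 707 Trp63-positive cKO nuclei and 48 of the 522 Ctrl ones lay in the cluster with type I markers. Among positive nuclei outside it, Mdm2 was at 35.3 CPM in Ctrl (45 UMIs) and 41.5 CPM in cKO (34 UMIs).

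**Figure D4:**
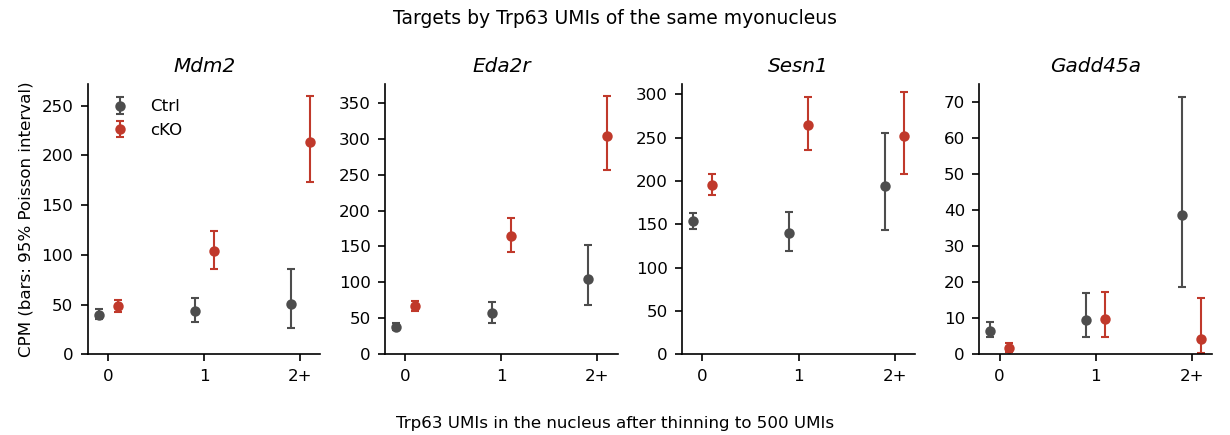
CPM of Mdm2, Eda2r, Sesn1 and Gadd45a in myonuclei with 0, 1 and 2 or more Trp63 UMIs after thinning to 500 UMIs, with Ctrl in grey, cKO in red and 95% Poisson intervals as bars. In cKO, Mdm2 goes from 48.6 to 213 CPM and Eda2r from 67.0 to 304 CPM, while the 3 Mdm2 values of Ctrl lie between 40.1 and 50.4 CPM.

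Main myosin and cluster were examined as parts of this contrast. Weighted to the same main myosin classes, the log2 ratio in cKO was 1.51 for Eda2r and 1.41 for Mdm2, close to the unweighted values. Eda2r was higher in Trp63-positive nuclei of cKO in each main myosin class, with log2 ratios between 1.26 (Myh4) and 2.74 (Myh2). Mdm2 was higher in Myh1 (2.01, 1.46 to 2.58), Myh2 (2.09, 1.05 to 3.13) and undetermined nuclei (1.62, 1.12 to 2.12), but not beyond counting error in Myh4 nuclei (0.34, −0.26 to 0.90) or Myh7 nuclei (0.66, −0.64 to 1.84). In Ctrl, undetermined nuclei were the one class where its interval lay above 0 (1.09, 0.29 to 1.83). Inside the cluster with type I markers, Mdm2 was at 234 CPM in positive and 72.7 CPM in negative cKO nuclei (1.69, 1.33 to 2.05). In the other cKO myonuclei it was at 41.5 and 39.1 CPM (0.09, −0.50 to 0.64). Eda2r differed inside (325 and 126 CPM) and outside the cluster (90.4 and 43.7 CPM). In Ctrl nuclei of the cluster, Mdm2 was at 133 and 70.5 CPM (0.91, −0.06 to 1.85), an interval that included 0 and overlapped that of cKO. In cKO, then, Mdm2 differed with Trp63 in that cluster and not detectably in the other myonuclei, whereas Eda2r differed in both.

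Eda2r and Mdm2 also went together in cKO. In 142 cKO nuclei with a thinned Eda2r UMI, Mdm2 was at 194 CPM (70 UMIs), against 62.0 CPM in the other 3159 nuclei (1.65, 1.26 to 2.02). Among Trp63-negative cKO nuclei the log2 ratio was 1.15 (0.42 to 1.81). In Ctrl it was 0.22 (−1.10 to 1.28), from 7 Mdm2 UMIs in 61 nuclei. This comparison was chosen after the other values had been seen.

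Nuclei outside the fibres came from a connective tissue, an endothelial and an immune cluster. The endothelial cluster also had 6 smooth muscle and pericyte markers. Free RNA in the droplets can add fibre transcripts to such nuclei, and 12 fibre genes such as Ttn and Myh4 were at 41.2% to 70.9% of their myonuclear level in Ctrl (median 45.9%) and at 36.7% to 76.6% in cKO (median 50.4%). Trp63 was at 194 CPM in Ctrl (206 UMIs) and 264 CPM in cKO (122 UMIs), or 42.7% and 39.9% of its myonuclear level. Thinned, 5.40% of Ctrl and 9.52% of cKO nuclei outside the fibres had a Trp63 UMI. These levels lie within the range of the fibre genes, so expression of Trp63 outside the fibres was not detectable above it.

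Cdkn1a and Zmat3 stood above that background. Cdkn1a was at 30.2 CPM outside the fibres in Ctrl (32 UMIs) and 15.2 CPM in cKO (7 UMIs), or 356% (226 to 550) and 331% (123 to 767) of its myonuclear level. Zmat3 was at 21.7 CPM (23 UMIs) and 17.3 CPM (8 UMIs), or 277% and 206%. Of all genes with at least 30 UMIs, 66.1% in Ctrl and 64.0% in cKO were higher outside the fibres, so this direction is the common one. Sesn1 was at 196 CPM for Ctrl and 141 CPM for cKO, above the myonuclear level in Ctrl (128%, 110 to 149) and below it in cKO (66.8%, 51.3 to 85.6). Mdm2 was at 60.4 and 49.8 CPM, above the myonuclear level in Ctrl and with an interval that included it in cKO. For Sesn1 the log2 ratio of cKO over Ctrl outside the fibres was −0.48 (−0.90 to −0.07), though the interval included 0 with doublets kept (−0.34, −0.72 to 0.03) and under each of the other 3 alternatives (values from −0.60 to −0.39). With at least 30 UMIs there were 6 members, of which 0 were higher and 1, Cdkn1a, was lower in cKO by 1.5-fold or more, against 8.14% and 15.8% of all genes. The interval of Cdkn1a included 0, and Cdkn1a (32 and 7 UMIs) had enough UMIs only through Ctrl, so nothing is read from this count.

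**Figure D5:**
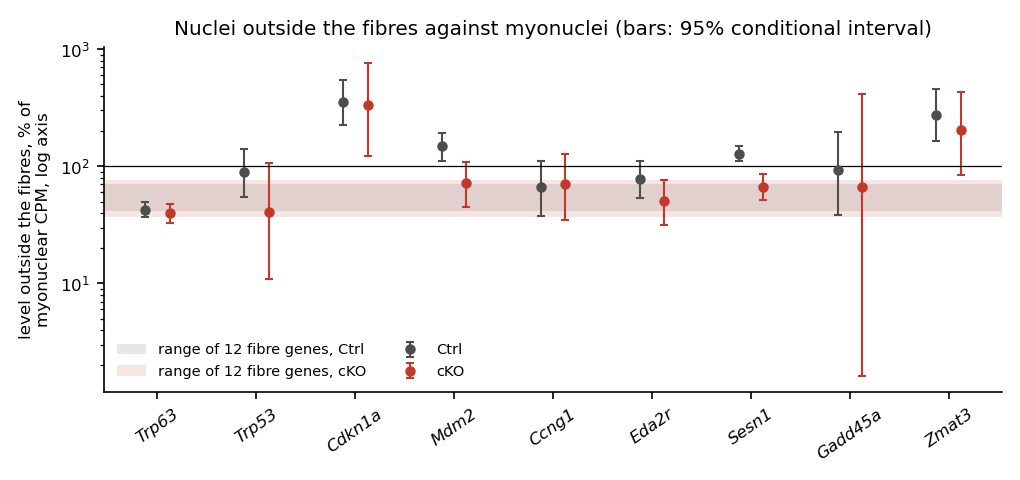
Level of each member outside the fibres as a percentage of its myonuclear CPM, on a log axis, with Ctrl in grey, cKO in red, 95% conditional intervals as bars and shaded bands for the range of 12 fibre genes. Trp63 lies at 42.7% and 39.9%, inside the bands, and Cdkn1a and Zmat3 lie above 100% in both libraries; Trp73, with 0 UMIs outside the fibres, is not drawn.

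Markers of other cells were also summed in the myonuclei. Of 9 epithelial genes that accompany p63 in skin, 5 had 0 UMIs in the myonuclei of both libraries (Krt5, Krt14, Krt15, Perp and Epcam), and the 9 summed to 1.3 CPM for Ctrl and 1.8 CPM for cKO. The 6 satellite cell markers summed to 12.8 and 15.8 CPM in myonuclei. The 10 markers of fibro-adipogenic progenitors summed to 73.9 and 41.0 CPM, against 3468 and 2037 CPM outside the fibres. The part of other cells in the values above was not tested.

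Over 12 points, the 4 main myosin classes, undetermined myonuclei and nuclei outside the fibres in both libraries, the genes most like Trp63 were Ypel2 (Pearson r of log2(CPM + 1) = 0.944), Cpe (0.901), 9330159F19Rik (0.900), Sh3bgr (0.888) and Myl1 (0.872), among 6315 genes with at least 200 UMIs. Ypel2 ran from 74.1 CPM (3 UMIs) in Ctrl Myh7 nuclei to 240 CPM (214 UMIs) in cKO Myh1 nuclei. The genes named after it had 4, 3, 2 and 7 UMIs in Ctrl Myh7 nuclei. Eda2r ranked 12th (0.837) and Mdm2 97th (0.694), but both had 0 UMIs at the Ctrl Myh7 point, which has few UMIs and enters these values, whereas Ccng1 (0.043) and Sesn1 (−0.184) ranked far below. The points share libraries and differ in depth, so these values only describe likeness.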

How the data were processed

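The authors deposited raw UMI counts per gene and barcode, made with Cell Ranger 3.1.0 on mm10 according to the submitters' notes, for 1 Ctrl and 1 cKO library of nuclei from GP muscle. Counts were used as deposited. Nuclei with at least 100 genes, at least 500 UMIs and at most 10% mitochondrial UMIs were kept. Scrublet called 0 doublets in either library, so the 8% of nuclei with the highest doublet scores were removed (307 Ctrl and 313 cKO). Nuclei were clustered with Seurat 5.3.0 and sctransform 0.4.2 (3000 features, 25 components, resolution 0.3). Clusters with at least 3 detected markers of a cell class outside the fibres, and more than of any fibre list, were placed outside the fibres. The rule first written, a low level of pan-fibre genes, left endothelial and immune clusters among the myonuclei, so it was replaced after seeing the data and kept as an alternative.

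UMIs were summed per library and class of nuclei and divided by the class total to give CPM. With 1 library per group no test was run. Intervals are exact Poisson (levels), Clopper-Pearson (shares) and conditional binomial (ratios), and cover counting error only. Folds were counted at 1.5-fold over genes with at least 30 UMIs. The limit for 0 UMIs is 3 UMIs in the class. For shares of Trp63-positive nuclei each nucleus was thinned to 500 UMIs. The ratio step was tested on simulated data, and the thinning step was checked on the counts themselves. Coordinates are from GENCODE on GRCm38, which matched all 10 members. The members and gene lists were chosen with earlier results of these data known. The genes named are the 10 members, list genes past 1.5-fold (some of which are not reported here), and the 5 genes most like Trp63; Bax, Bbc3, Fas, Pmaip1, Perp, Mdm4, Atm and Atr were added as known p53 genes after their values had been seen. Alternatives covered doublets, depth, the total, the myosin rule, thinning and the list limits.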

Additional observations from a re-analysis of the deposited data

How the results depend on the processing

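Of 332 alternative values, 287 stayed within the spread set by counting error or the limit on counts, 43 moved beyond it and 2 values past 1.5-fold changed sign. These 2 were the log2 ratio of Ccng1 in Myh1 nuclei (-0.012 with main myosin at 80% of at least 5 UMIs) and of Gadd45a in Myh4 nuclei (0.94 with main myosin called after thinning). For Trp63 in all myonuclei the log2 ratio was 0.64 without Malat1 and mitochondrial genes in the total and 0.37 when CPM was computed per nucleus and averaged, which gave 0.50 for Mdm2 and 0.98 for Eda2r. With main myosin at 80% of at least 5 UMIs, Trp63 was at 2.06 in Myh2 and 0.13 in Myh4 nuclei. With main myosin called after thinning it was at 1.74 in Myh2, 1.51 in Myh1, 0.57 in Myh4 and 0.51 in undetermined nuclei. With clusters split by pan-fibre genes, an alternative chosen after seeing the data, Trp63 outside the fibres was at -0.034, against 0.44. Some values under 1.5-fold also changed sign, such as Mdm2 in Myh4 nuclei (−0.05 with main myosin at 80% of at least 5 UMIs, against 0.23) and, in Trp63-positive against Trp63-negative Ctrl nuclei with another thinning seed, Zmat3 (0.69, against −0.36) and Sesn1 (0.19, against −0.03). At a 2-fold limit, 1 of 9 members was higher and 1 lower, 2 of 30 other targets were higher and 1 lower, and 0 of 18 regulators were lower, beside 3.56% of all genes higher and 4.24% lower. At 10 UMIs or more, 9 of 39 other targets were higher and 4 lower, and 1 of 20 regulators was higher, beside 10.6% and 16.3%. At 100 UMIs or more, 0 of 7 members were lower, and 3 of 22 other targets were higher and 0 lower, beside 6.45% and 9.01%. Without Malat1 and mitochondrial genes, 0 of 18 regulators were lower (9.33% of all genes), and with doublets kept 3 of 30 other targets were higher (8.02%). The members counted as higher were 2 with doublets kept and 4 without Malat1 and mitochondrial genes. With CPM per nucleus, Mdm2 and Ccng1 (0.57) were no longer past the limit. The cause of these changes was not tested. No paired analysis was possible because each group has 1 library. Per the protocol each library pools 3 muscles, so differences between animals cannot be told apart from differences between groups. Depth limits Trp73 (10 and 11 UMIs), Gadd45a in cKO (22 UMIs) and every member in the 19 Ctrl Myh7 nuclei.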
